A study of Polypedilum vanderplanki with 84 samples.

Results

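Pv11 is a cultured cell line of the sleeping chironomid *Polypedilum vanderplanki*, whose cells survive almost complete drying after preconditioning. Recovery from heat was measured in 12 of the 84 RNA sequencing libraries of the series, which are Heat 3 h, Control 3 h, Heat 24 h and Control 24 h with 3 biological replicates each. Heat cells were held at 42 °C for 15 min before time 0 and sampled 3 or 24 h later, and Control cells of the same times received no stress. These 4 groups were the same cell line in IPL-41 medium with no agent added, so the results describe 1 line in culture. The earlier groups Heat 1 h and Control 1 h (6 libraries) served to list the genes of the early response, and Paraquat 3 h and Paraquat 24 h (6 libraries, cells in 20 µM paraquat, labelled ROS for reactive oxygen species) served as a second stress at the same times. Of 18248 genes listed, 9450 had a mean TPM above 1 over all libraries and were tested, where TPM is the length-corrected share of a gene in its library, scaled to a fixed total.

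Heat unfolds proteins, and cells answer by activating heat shock factor (HSF), a transcription factor that binds heat shock elements and drives genes of chaperones such as HSP70, HSP90 and the small heat shock proteins. The response is known to be transient, since the chaperones it makes bind HSF and return it to its resting state as proteins refold. Late embryogenesis abundant (LEA) proteins are hydrophilic proteins that protect cell contents when water is lost. The deposited table pairs IDs with no gene names, so genes are given by ID, and a role is stated only for the genes that the study names.

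The depth of the libraries is unknown, since TPM holds no read counts, and a value of 0 is given as listed at 0. The 12 libraries held between 11938 and 12929 genes above 0, with a median of 12456. The Control 3 h libraries stood apart from each other: their median SD over genes was 0.289 on the log2(TPM + 1) scale, the largest of the 18 stress groups, of which the smallest had 0.078. The 100 most abundant genes took 35.5% of the TPM in Control 3 h replicate 2, against 47.0% and 41.9% in replicates 1 and 3. The share of the 100 most abundant genes lay between 48.9% and 52.5% in Control 24 h and between 43.5% and 47.9% in Heat 24 h, so the groups did not overlap. The Paraquat 24 h libraries had 47.4%, 43.3% and 43.7%, also below every Control 24 h library. Counts are therefore given for TPM as deposited and after median ratio scaling, which brings the libraries to the same typical level over 9254 genes.

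Few genes remained changed at 3 h. A gene was called at an adjusted p under 0.05 (limma with Benjamini-Hochberg adjustment over all genes tested) and a fold change above 2 on the log2(TPM + 1) scale, which understates changes of low genes. At 3 h, 46 genes (0.487% of those tested) were called, of which 18 rose (0.19%) and 28 fell (0.296%). After scaling, 20 rose (0.212%) and 21 fell (0.222%), and these held all 18 of the rises and 20 of the 28 falls. The median log2 change of all genes was -0.08 as deposited and -0.01 after scaling. The count of rises was between 17 and 22 when any 1 of the 6 libraries was left out, whereas the falls went from 14 without Control 3 h replicate 2 to 146 without Control 3 h replicate 1. Without Control 3 h replicate 1, the total was 163 in place of 46. In such cultures, fewer cells of a kind and less RNA per cell cannot be told apart.

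Later, at 24 h, more genes were called, nearly all of them rises, and this count depended on the scaling and on single libraries. As deposited, 169 genes (1.79%) were called, of which 161 rose (1.7%) and 8 fell (0.0847%). After scaling, 82 genes (0.868%) were called, of which 46 rose (0.487%) and 36 fell (0.381%), and all 46 were among the 161. The median log2 change of all genes was 0.27 as deposited and -0.04 after scaling, so a gene unchanged relative to the others would read 0.27 as deposited. Without Heat 24 h replicate 3, 980 genes were called, and without Control 24 h replicate 1, 260 were. Without Heat 24 h replicates 1 and 2, each left out alone, 19 and 32 genes were called, and without Control 24 h replicates 2 and 3, 19 and 40 were.

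**Figure D1:**
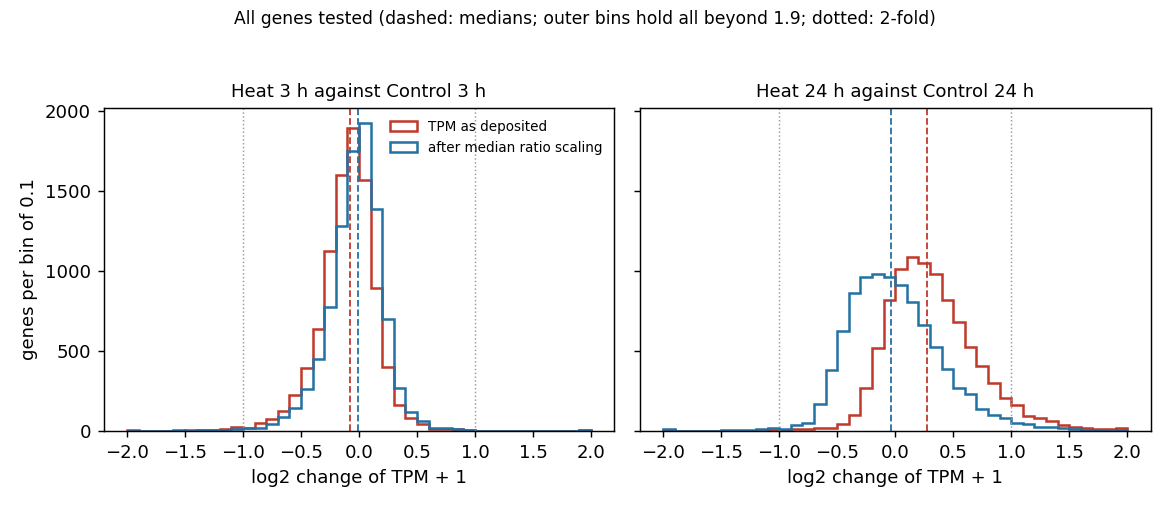
Number of genes (y axis, per bin of 0.1) by their log2 change of TPM + 1 (x axis) at 3 h (left) and 24 h (right), for TPM as deposited (red) and after median ratio scaling (blue); dashed lines mark the medians and dotted lines a 2-fold change. At 24 h the median is 0.27 as deposited and -0.04 after scaling, and the 161 rises and 8 falls become 46 and 36.

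Nearly all genes still up at 3 h belonged to the early response. At 1 h, 109 genes had been called up (1.15% of those tested) and 12 down (0.127%), in libraries that enter neither later comparison. Of the 18 genes called up at 3 h, 17 (94.4%) had been up at 1 h, and they made 15.6% of the 109. The remaining gene, g3143, had TPM values of 0, 0.29 and 0 in Control 3 h and of 1.59, 1.06 and 1.9 in Heat 3 h, so the groups did not overlap but the levels were low. Its call was lost with sample weights (adjusted p = 0.47) and in a fit of only the groups compared (0.16). Of the 161 genes called up at 24 h, 17 (10.6%) had been up at 1 h, again 15.6% of the 109. After scaling, 19 of the 20 rises at 3 h and 13 of the 46 rises at 24 h were among the 93 genes up at 1 h (0.984%).

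Of the 109 genes, 9 were called up at all 3 times, 8 at 1 and 3 h, 8 at 1 and 24 h, and 82 at 1 h alone. The other 2, g14081 and nc1104, were up at 1 h and down at 3 h. g14081 had 16.7, 87.5 and 15.7 TPM in Control 3 h and 7.67, 13.2 and 18.2 TPM in Heat 3 h, which overlap. With Control 1 h in place of Control 3 h, its log2 change at 3 h was 0.08. nc1104 had 13.6, 51.6 and 22.4 TPM in Control 3 h and 12.9, 8.53 and 11.6 TPM in Heat 3 h. Both were highest in Control 3 h replicate 2, and neither was called without it.

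The 8 genes up at 1 and 3 h but not at 24 h had a median log2 change of 5.2 at 1 h, 1.73 at 3 h and 0.24 at 24 h (all genes: 0.27). The 9 genes called at every time had medians of 3.00, 2.34 and 1.92. The 8 genes called at 1 and 24 h had medians of 1.71, 0.53 and 1.33. These 3 sets were chosen by their calls at the same times, so the medians describe them and are no finding. The whole list of 109 had a median log2 change of 1.3 at 1 h, which is the value that chose it, of 0.04 at 3 h (all genes: -0.08) and of 0.55 at 24 h (all genes: 0.27). After scaling, its medians at 3 and 24 h were 0.12 and 0.21 (all genes: -0.01 and -0.04). At 24 h, 99 of the 109 had a positive change, against 80.4% of all genes, and after scaling 77 had. With each library left out in turn, the median of the list lay between -0.16 (without Control 3 h replicate 1) and 0.36 (without Control 3 h replicate 2) at 3 h and between 0.41 and 0.65 at 24 h.

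**Figure D2:**
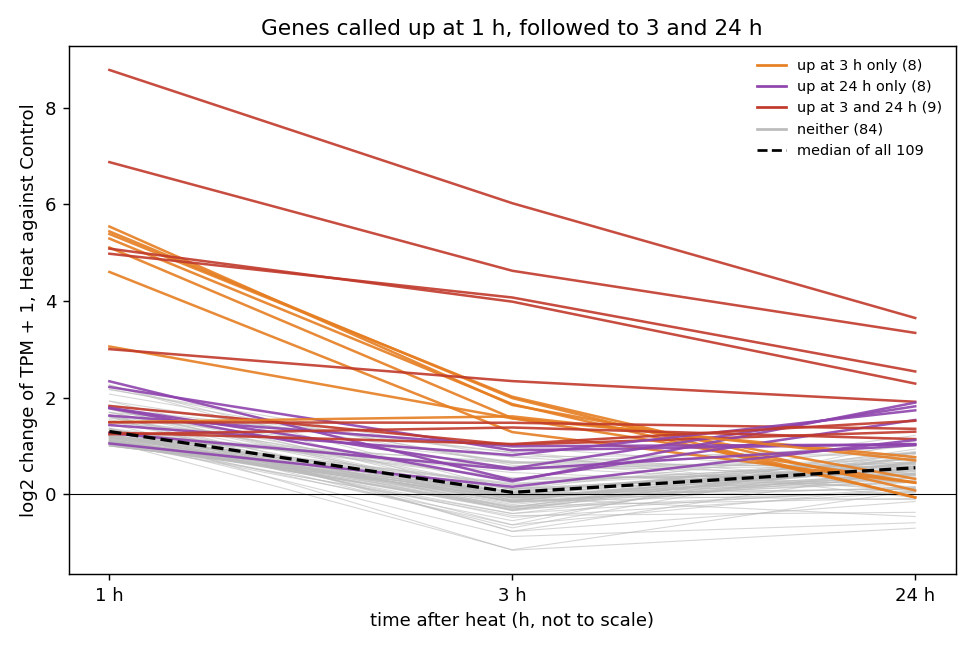
Log2 change of TPM + 1, Heat against Control of the same time (y axis), at 1, 3 and 24 h (x axis, not to scale) for the 109 genes called up at 1 h. Lines are genes, coloured by the later times at which they were called up (9 at both, 8 at 3 h only, 8 at 24 h only, 84 at neither), and the dashed line is the median, which is 0.04 at 3 h and 0.55 at 24 h.

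Each gene with a large early rise was still called up at 3 h. Of the 12 genes whose log2 change at 1 h was above 3, all 12 were called up at 3 h and 5 at 24 h, and of the 90 genes between 1 and 2, 5 were called up at 3 h and 10 at 24 h. The 7 genes between 2 and 3 gave 0 and 2 calls. Of all genes tested, 0.19% were called up at 3 h and 1.7% at 24 h. After scaling, 5 of the 12, 1 of the 7 and 6 of the 90 were called up at 24 h, against 0.487% of all genes. As a share of all TPM, the 109 genes together held 6.99% ± 0.15 (SD, n = 3) in Heat 1 h, 3.44% ± 0.06 in Heat 3 h and 1.75% ± 0.13 in Heat 24 h. The Control groups held 1.08% ± 0.03, 1.6% ± 0.14 and 1.15% ± 0.04 at these times. At 24 h the Heat libraries held 1.88%, 1.62% and 1.75%, all above the 1.2%, 1.12% and 1.14% of Control 24 h. An exact permutation test of 3 against 3 libraries cannot go below p = 0.1 (two-sided), so no test of this share is given.

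The largest rises at 3 and at 24 h, as at 1 h, were those of g17055 and g17054, which have consecutive IDs. For g17055, TPM was 15.5, 7.69 and 11.8 in Control 3 h and 658, 919 and 836 in Heat 3 h. In the 24 h libraries it was 27.0, 19.1 and 20.8 in Control 24 h and 279, 248 and 346 in Heat 24 h. Every Heat library thus lay far above every Control library at both times. Mean TPM was 68.8 times that of the control at 3 h (log2 change 6.02 ± 0.32, SE, adjusted p = 6.9e-18) and 13.0 times at 24 h (3.65 ± 0.32, adjusted p = 1.3e-10), after 496 times at 1 h.

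For g17054, TPM was 226, 236 and 219 in Control 3 h and 5383, 5800 and 5704 in Heat 3 h. After 24 h it was 190, 196 and 187 in Control 24 h and 2165, 1647 and 2055 in Heat 24 h. The groups were again far apart, and the mean was 24.8 times that of the control at 3 h (log2 change 4.63 ± 0.11, adjusted p = 2.1e-30) and 10.2 times at 24 h (3.34 ± 0.11, adjusted p = 4.5e-25), after 118 times at 1 h.

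A second pair with consecutive IDs, g10586 and g10587, followed the same course. g10586 had 105, 81.5 and 88.3 TPM in Control 3 h and 1422, 1613 and 1616 TPM in Heat 3 h. At 24 h it had 100, 117 and 102 TPM in Control 24 h and 681, 536 and 666 TPM in Heat 24 h. Its mean was 16.9 times that of the control at 3 h and 5.89 times at 24 h, with no overlap between groups. g10587 had 33.5, 32.8 and 32.6 TPM in Control 3 h and 507, 569 and 538 TPM in Heat 3 h. In the 24 h libraries it had 36.9, 43.5 and 43.7 TPM in Control 24 h and 222, 173 and 227 TPM in Heat 24 h. The ratios of means were 16.3 and 5.01, again without overlap. The log2 changes at 24 h were 2.54 ± 0.11 for g10586 (adjusted p = 2.4e-20) and 2.29 ± 0.14 for g10587 (adjusted p = 8.4e-16).

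g5811 was a gene of low level with the same pattern. It had 1.09, 0.30 and 0.90 TPM in Control 3 h and 7.33, 6.90 and 9.24 TPM in Heat 3 h, and 1.16, 0.46 and 0.42 TPM in Control 24 h and 5.08, 4.39 and 6.33 TPM in Heat 24 h. Its log2 change was 2.34 ± 0.21 at 3 h (adjusted p = 4.6e-11) and 1.92 ± 0.21 at 24 h (adjusted p = 2.9e-08), and no library of Heat overlapped with Control. These 5 genes were called against Control in all 14 alternative fits run for single genes at 3 h and all 13 at 24 h, which included each replicate left out in turn but neither another filter nor single transcripts.

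**Figure D3:**
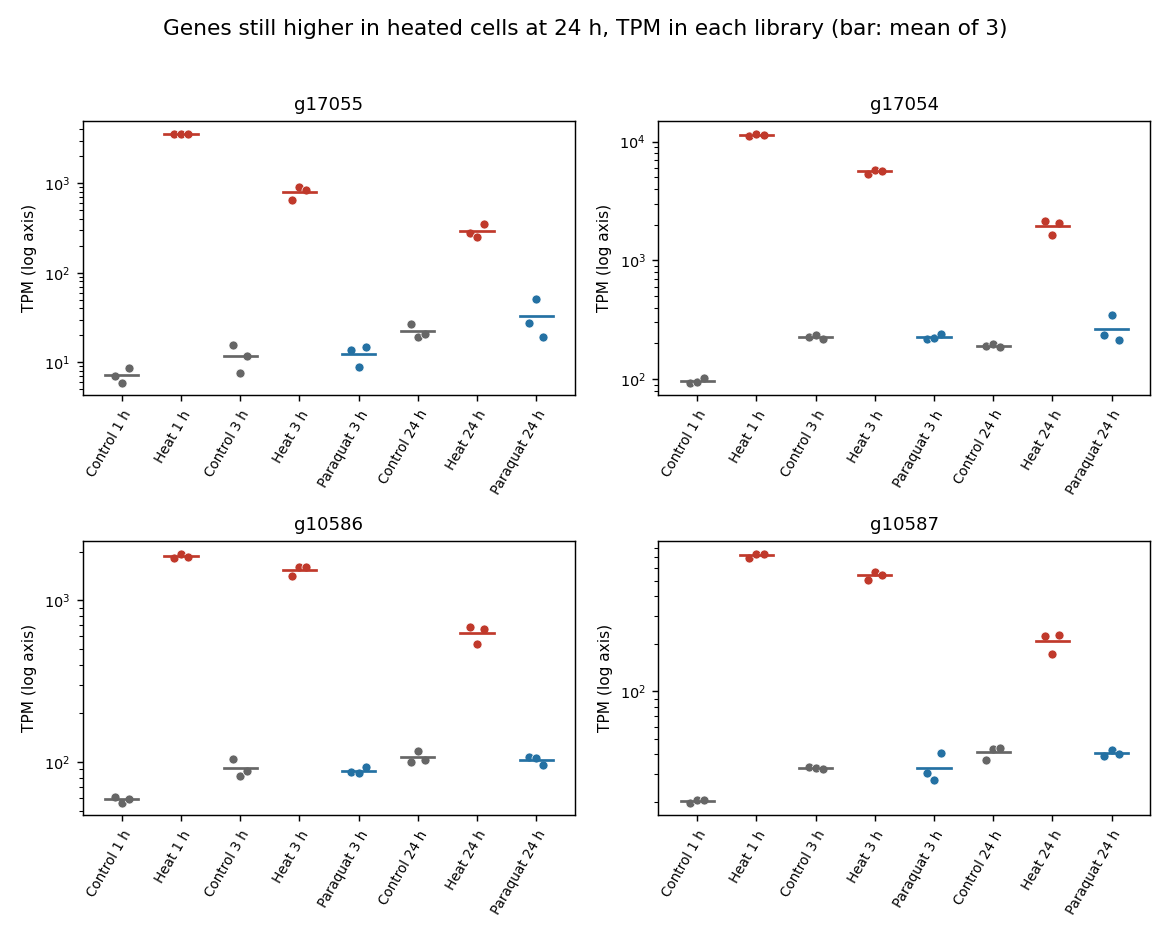
TPM on a log axis (y axis) in each library of the groups named on the x axis, for g17055, g17054, g10586 and g10587; points are libraries and bars are means of 3. In all 4 panels the Heat libraries (red) fall from 1 h to 24 h and stay above every Control (grey) and Paraquat (blue) library of the same time, and g17054 has 2165, 1647 and 2055 TPM in Heat 24 h against 190, 196 and 187 in Control 24 h.

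Most of the transcripts of these 5 genes that were tested were called as well. The genes had 14 (g17055), 6 (g17054), 6 (g10587), 2 (g10586) and 1 (g5811) transcripts listed, not all of which were tested. Of the transcripts tested one by one, 4 of 4 of g17055 were called up at 3 h and at 24 h, 4 of 5 of g17054 at 3 h and 3 of 5 at 24 h, and 3 of 4 of g10587 at both times. g10586 and g5811 each had 1 transcript tested, called up at both times. Genes with consecutive IDs can be near-identical copies among which reads are split, and their sequences were not compared here, so the share of each gene in a pair is uncertain. Of the 18 genes up at 3 h, 8 lay in 3 runs of consecutive IDs, the longest of 4 genes, and of the 103 coding genes up at 1 h, 26 lay in 10 such runs.

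The size of the response was compared between times by the test of the difference itself. From 1 h to 3 h, the heat response was lower in 122 genes (1.29% of those tested) and higher in 7 (0.0741%), and after scaling in 92 (0.974%) and 5 (0.0529%). From 3 h to 24 h it was lower in 11 genes (0.116%) and higher in 37 (0.392%), and after scaling in 18 (0.19%) and 7 (0.0741%), so the balance of the directions turned with the scaling. Of the 11 genes with a lower response, 10 had been up at 1 h. The fall between 3 and 24 h was -2.37 ± 0.46 on the log2 scale for g17055 (adjusted p = 0.0025), -1.28 ± 0.15 for g17054 (adjusted p = 3.2e-07), -1.53 ± 0.16 for g10586 and -1.70 ± 0.19 for g10587. For g5811 the difference was -0.43 ± 0.29 and was not called (adjusted p = 0.26).

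This comparison of 24 h with 3 h had a total of 48 calls (0.508%), which rested on single libraries. The total became 1743 without Control 3 h replicate 1, 436 without Heat 3 h replicate 1, 89 without Heat 24 h replicate 3 and 87 without Control 24 h replicate 1. It was 17 without Control 3 h replicate 2, 30 without Control 3 h replicate 3, 19 without Control 24 h replicate 2, 27 without Control 24 h replicate 3, 20 without Heat 3 h replicate 2, 19 without Heat 3 h replicate 3, 24 without Heat 24 h replicate 1 and 20 without Heat 24 h replicate 2. The falls of the response were between 9 and 32 in these fits and the rises between 7 and 1711, and g17055, g17054, g10586 and g10587 were called in all 12.

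Most of the genes that fell at 3 h were not called at 24 h. Of the 28 genes called down at 3 h, 5 had been down at 1 h and 1 was still down at 24 h, and their median log2 change was -1.22 at 3 h, which chose them, and -0.14 at 24 h (all genes: 0.27). After scaling the medians were -1.13 and -0.49 (all genes: -0.01 and -0.04) with 3 of the 28 called down at 24 h. The gene called at 3 and 24 h was g13362, with 525, 438 and 521 TPM in Control 3 h and 193, 178 and 188 TPM in Heat 3 h. After 24 h it had 282, 249 and 263 TPM in Control 24 h and 130, 127 and 134 TPM in Heat 24 h. The groups did not overlap, and its mean was 0.377 times that of the control at 3 h (log2 change -1.40 ± 0.07, adjusted p = 1.5e-18) and 0.493 times at 24 h (-1.01 ± 0.07, adjusted p = 1.4e-13). At 24 h its change was close to the threshold of -1: it was -0.97 without Control 24 h replicate 1 and -0.99 without Heat 24 h replicate 2, and was not called there. Of its 12 transcripts tested (21 listed), 3 were called down at 3 h and 1 at 24 h, where 4 had a higher level in Heat.

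The 5 genes down at 1 and 3 h were g3757, g1928, g5884, g10434 and g11284. Among genes called at 3 h whose groups did not overlap, g3757 had the largest fall after g3547, a gene listed at 0 in Heat 3 h. It had 63.5, 94.2 and 83.1 TPM in Control 3 h and 19.6, 21.1 and 18.4 TPM in Heat 3 h, with no overlap (log2 change -1.96 ± 0.16, adjusted p = 8.2e-12). In the 24 h libraries it had 55.5, 46.4 and 64.3 TPM in Control 24 h and 40.6, 39.2 and 30.9 TPM in Heat 24 h, a smaller difference (-0.57 ± 0.16, adjusted p = 0.022) under the fold threshold. g1928 had log2 changes of -1.66 ± 0.17 at 3 h and -0.22 ± 0.17 at 24 h, and g5884 of -1.44 ± 0.19 and -0.20 ± 0.19. For g10434 these were -1.36 ± 0.14 and -0.48 ± 0.14, and for g11284 -1.05 ± 0.14 and -0.09 ± 0.14. None of the 5 was called down at 24 h. The call of g11284 at 3 h was lost, at log2 changes of -0.99, -0.98 and -0.99, without Control 3 h replicate 2, Control 3 h replicate 3 and Heat 3 h replicate 3. It was also lost after scaling (-0.97) and in a fit of only the groups compared (adjusted p = 0.067), and that fit lost the call of g5884 too (adjusted p = 0.066).

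The largest fall by fitted value among the genes called at 3 h was that of g3547, which was listed at 0 in all 3 Heat 3 h libraries and had 9.27, 52.1 and 31.02 TPM in Control 3 h (adjusted p = 0.0082). No fold is given against a group at 0. The gene varied between replicates elsewhere, with 26.2, 6.95 and 0.68 TPM in Heat 24 h and 2.03, 0 and 0 TPM in Control 24 h, and its call at 3 h was lost without Control 3 h replicate 2 (adjusted p = 0.069), with sample weights (0.70) and in a fit of only the groups compared (0.0504).

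Of the genes called at 24 h, 144 were rises called at no earlier time. Their median log2 change was 1.13 at 24 h, which chose them, 0.42 at 1 h (all genes: 0.08) and -0.13 at 3 h (all genes: -0.08). After scaling, the median of these 144 at 24 h was 0.84 (all genes: -0.04), under the fold threshold. With calls after scaling, 33 genes were rises at 24 h alone. The 161 rises had a median of 4.43 TPM in Control 24 h, against 13.5 TPM for all genes tested, and the 46 that held after scaling had 1.51 TPM. Control 24 h helped to choose these rises, so a low level there follows in part from the choice. In Control 3 h, outside that comparison, the medians were 12.4 TPM for the 161, 7.34 TPM for the 46 and 22.2 TPM for all genes. The 161 rises held 16 noncoding genes (9.94%, against 5.37% of all genes tested), and the 46 held 9 (19.6%). Of the 161, 154 had all 3 Heat 24 h libraries above all 3 Control 24 h libraries, where 3555 of all 9450 genes did. The same libraries chose the 161, so this count describes them and is no finding. The largest falls at 24 h among genes whose groups did not overlap were both at low levels. g15726 had 6.16, 5.67 and 11.04 TPM in Control 24 h and 1.9, 0 and 0 TPM in Heat 24 h (log2 change -2.54 ± 0.62, adjusted p = 0.011), and it was not called without Control 24 h replicate 3 (adjusted p = 0.055) or Heat 24 h replicate 2 (0.060). It was listed at 0 in all libraries of Control 3 h and Heat 3 h. g2449 had 4.43, 3.52 and 5.39 TPM in Control 24 h and 0.52, 2.65 and 1.64 TPM in Heat 24 h (-1.14 ± 0.41, adjusted p = 0.0495), and its call was lost without each library other than Heat 24 h replicate 3, with adjusted p between 0.065 and 0.25.

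HSF (g3611), the factor that drives the heat shock response, was called at neither time. It had 141, 263 and 201 TPM in Control 3 h and 212, 146 and 150 TPM in Heat 3 h, and the groups overlapped (log2 change -0.22 ± 0.19, adjusted p = 0.72). After 24 h it had 152, 123 and 142 TPM in Control 24 h and 241, 222 and 181 TPM in Heat 24 h, without overlap (0.62 ± 0.19, adjusted p = 0.032), under the fold threshold and 0.25 after scaling. The adjusted p of HSF at 24 h was 0.067 in a fit of only the groups compared. In Paraquat 24 h it had 172, 240 and 238 TPM, which overlap with Heat 24 h (log2 difference -0.0039 ± 0.19). Of its 13 transcripts tested alone, 1 was called up at 24 h.

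NF-YA (g7210) is a subunit of NF-Y, which binds CCAAT boxes in promoters together with NF-YB (g5893) and NF-YC (g11889). NF-YA was lower in heated cells at both times. It had 101, 104 and 98.1 TPM in Control 3 h and 60.2, 65.2 and 61.8 TPM in Heat 3 h. At 24 h it had 81.3, 73.8 and 88.4 TPM in Control 24 h and 57.5, 57.5 and 60.5 TPM in Heat 24 h. All Heat libraries lay below all Control libraries, with means of 0.618 times the control at 3 h (log2 change -0.69 ± 0.06, adjusted p = 6.0e-11) and 0.721 times at 24 h (-0.46 ± 0.06, adjusted p = 2.6e-06). Both changes are under the fold threshold, so the gene was not called. Its adjusted p was 0.030 at 3 h and 0.067 at 24 h in a fit of only the groups compared. At 1 h the change was -0.11 ± 0.06 (adjusted p = 0.28), and the response was lower at 3 h than at 1 h by a log2 difference of -0.57 ± 0.09 (adjusted p = 1.3e-05, and 0.33 after scaling), again under the fold threshold. After scaling, the changes were -0.61 (adjusted p = 0.0047) and -0.83 (adjusted p = 1.1e-04), relative to medians of -0.01 and -0.04. NF-YB had log2 changes of -0.24 ± 0.21 and 0.04 ± 0.21, and NF-YC of 0.18 ± 0.11 and -0.19 ± 0.11, with adjusted p between 0.18 and 0.88, whereas NF-YC at 24 h was -0.55 after scaling (adjusted p = 0.033). Of the 3 transcripts of NF-YA, none was called alone at either time. In Heat, 2 were higher and 1 lower at 3 h, and 1 was higher and 2 lower at 24 h.

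**Figure D4:**
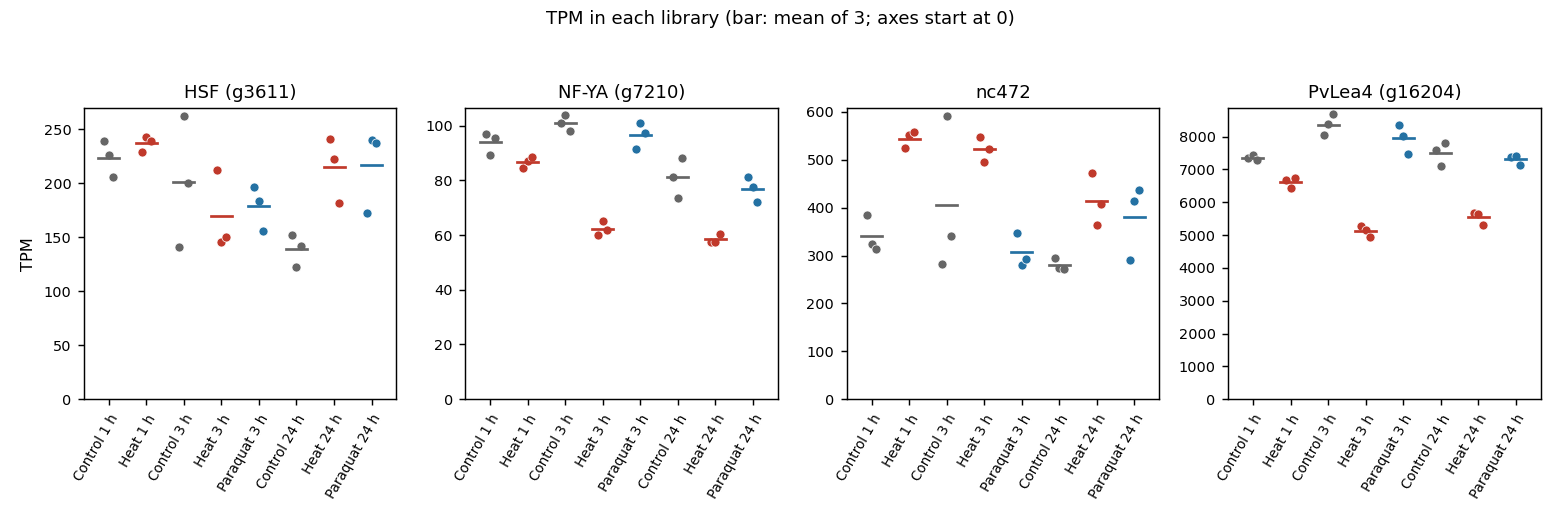
TPM (y axes, from 0) in each library of the groups named on the x axes, for HSF (g3611), NF-YA (g7210), the noncoding RNA nc472 and PvLea4 (g16204); points are libraries and bars are means of 3. NF-YA and PvLea4 are lower in Heat 3 h and Heat 24 h than in every Control and Paraquat library of the same time, as with the 60.2, 65.2 and 61.8 TPM of NF-YA in Heat 3 h, whereas the HSF groups overlap at 3 h.

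ARId1 is a cluster of LEA genes and of LIL (Lea-island-located) genes, which the authors divided into Blocks 1 to 4 by their expression in libraries of this series, so the Blocks are not independent of these data. ARId1 was taken here as the IDs from g16168 to g16208, which hold fewer genes than the study counts in the cluster. Of 40 ARId1 genes listed in this range, 39 were tested. At 3 h, 4 of the 39 were called down and none up, which is 10.3% against 0.296% of all genes. A negative change was seen in 38 (97.4%, against 65.8% of all genes), with a median of -0.40 (all genes: -0.08). All 4 belonged to Block 1, in which all 28 genes tested had a negative change with a median of -0.47. At 24 h none of the 39 was called and 21 had a negative change (53.8%, against 19.5% of all genes). The ARId1 median of -0.06 lay below the 0.27 of all genes. After scaling, the ARId1 medians were -0.33 at 3 h and at 24 h (all genes: -0.01 and -0.04). At 3 h 2 ARId1 genes were then called down (5.13%, against 0.222% of all genes), and at 24 h 1 was (2.56%, against 0.381%). The share of TPM in ARId1 genes was 3.73%, 4.16% and 4.05% in Control 3 h and 3.12%, 2.99% and 2.9% in Heat 3 h. In the 24 h libraries it was 3.68%, 3.47% and 3.72% in Control 24 h and 3.16%, 3.12% and 3.01% in Heat 24 h, so heated cells held the lower share in every library at both times.

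The 4 genes were g16173, g16176, g16178 and g16179, all at low levels. In a fit of only the groups compared, none of the 4 was called (adjusted p = 0.17, 0.56, 0.059 and 0.21), and with sample weights g16176 and g16179 were not (0.35 and 0.14). g16178 had 7.97, 9.23 and 10.5 TPM in Control 3 h and 2.62, 2.36 and 1.67 TPM in Heat 3 h, without overlap (log2 change -1.67 ± 0.23, adjusted p = 2.4e-06). After 24 h it had 3.85, 3.76 and 2.75 TPM in Control 24 h and 2.73, 4.77 and 2.95 TPM in Heat 24 h, which overlap (-0.01 ± 0.23). The other 3 changed by -1.29 ± 0.19 (g16173), -1.08 ± 0.25 (g16176) and -1.06 ± 0.18 (g16179) at 3 h. At 24 h g16173 had a change of -0.995 ± 0.19 (adjusted p = 9.6e-04), just short of the fold threshold, and was called after scaling (-1.31). g16176 and g16179 were not called at 3 h after scaling (-0.99 and -0.95). In Block 1 at 3 h, 2 genes were called down without Control 3 h replicate 2, 6 without Control 3 h replicate 3, 6 without Heat 3 h replicate 1 and 7 without Control 3 h replicate 1. In the same order, 14, 43, 36 and 146 of all 9450 genes were called down in these fits. Against Control 1 h in place of Control 3 h, a comparison added after the spread of Control 3 h was seen, the median of Block 1 was -0.18 (all genes: 0.04) and no gene of it was called. In that fit, 18 of the 28 Block 1 genes had a negative change (64.3%, against 46.5% of all genes). Of all 9450 genes, 123 were called down there.

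The most abundant ARId1 gene described here, PvLea4 (g16204, Block 3), a LEA protein gene, had 8040, 8381 and 8675 TPM in Control 3 h and 5268, 5167 and 4955 TPM in Heat 3 h. At 24 h it had 7594, 7103 and 7808 TPM in Control 24 h and 5673, 5650 and 5310 TPM in Heat 24 h. The groups did not overlap, and the log2 changes of -0.71 ± 0.06 (adjusted p = 8.9e-11) and -0.44 ± 0.06 (adjusted p = 1.9e-05) were under the fold threshold. They were -0.63 and -0.81 after scaling. With only the groups compared in the fit, the adjusted p was 0.0504 at 3 h and 0.0499 at 24 h. Of the 35 transcripts of PvLea4 tested (207 listed), 1 was called down at 3 h and 5 at 24 h. In Heat, 22 were lower and 11 higher at 3 h, and 20 were lower and 14 higher at 24 h. In the same Block, PvLea17 (g16201) had the opposite sign, with 44.5, 44.4 and 44.3 TPM in Control 3 h and 56.5, 54.7 and 56.9 TPM in Heat 3 h (0.33 ± 0.07, adjusted p = 0.0018, and 0.40 with adjusted p = 0.075 after scaling). At the borders of Block 4, PvLea5 (g16205) and PvLea11 (g16208) had changes of -0.45 ± 0.25 and -0.38 ± 0.15 at 3 h and of 0.09 ± 0.25 and 0.19 ± 0.15 at 24 h, and neither was called. At the other borders, PvLil6 (g16168), PvLil11 (g16198), g16199 and PvLil2 (g16200) lay between -0.69 and -0.08 at 3 h and between -0.10 and 0.31 at 24 h, all with adjusted p above 0.05. Outside ARId1, PvLea12a (g17258) was at or below 1.27 TPM in all these libraries and was not called. It was the one of the LEA genes outside the cluster that could be tested.

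**Figure D5:**
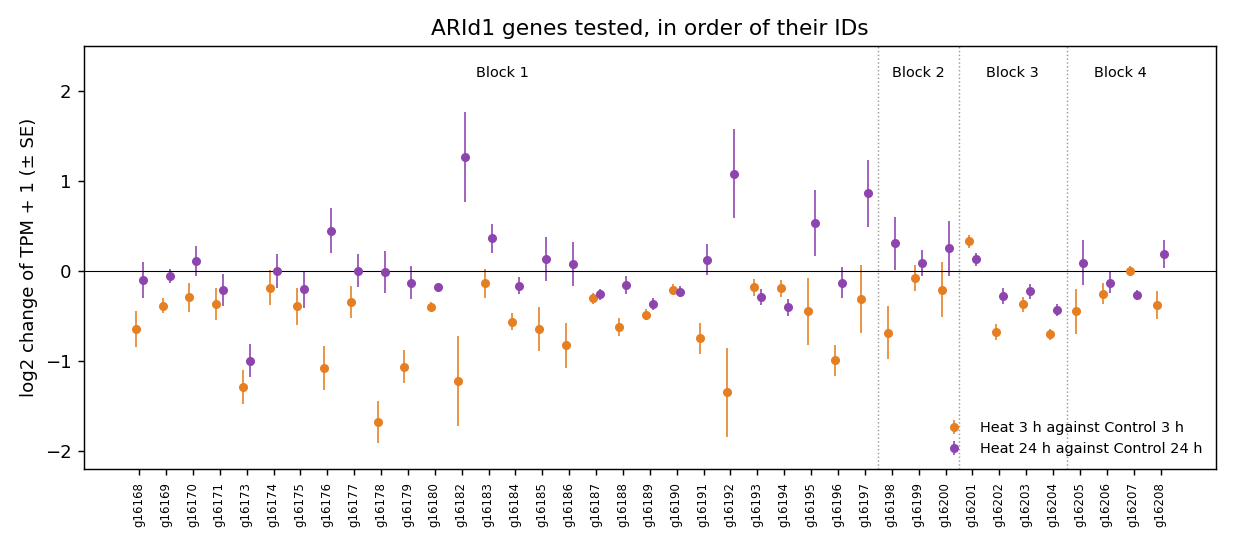
Log2 change of TPM + 1 (y axis, ± SE) at 3 h (orange) and 24 h (purple) for the 39 ARId1 genes tested, in order of their IDs (x axis), with dotted lines between the Blocks. At 3 h 38 of the 39 points lie below 0 (65.8% of all genes tested do), with g16178 at -1.67. At 24 h 21 lie below 0 (19.5% of all genes tested do).

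Noncoding genes, those with IDs that begin with nc, had 507 members tested. At 3 h 1 was called down (nc1104; 0.197%, against 0.296% of all genes) and none up (against 0.19%), and at 24 h 16 were called up (3.16%, against 1.7% of all genes) and 1 down (0.197%, against 0.0847%). After scaling, 9 were up (1.78%, against 0.487% of all genes) and 6 down (1.18%, against 0.381%) at 24 h. The median change of the noncoding genes was -0.42 at 3 h (all genes: -0.08), with 443 of 507 negative (87.4%, against 65.8% of all genes). This median moved with single libraries. Without Control 3 h replicate 2 it was 0.12 (all genes: 0.06), with 166 negative. Without Control 3 h replicate 1 it was -0.86 (all genes: -0.20), with 64 called down, against 146 of all 9450 genes. Against Control 1 h, a comparison added later, it was -0.29 (all genes: 0.04), with 366 negative. There 17 noncoding genes were called down and 5 up, against 123 and 121 of all 9450 genes. At 24 h the median was 0.46 (0.25 after scaling) and stayed between 0.33 and 0.58 when any 1 library was left out. Leaving out Heat 24 h replicate 3 gave 103 noncoding genes called up at 24 h, leaving out Control 24 h replicate 1 gave 10, and leaving out any other of the 6 gave 0. Over all genes, the rises in these fits numbered 961, 252 and between 15 and 36.

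The noncoding RNA nc472 and its neighbour g7775, a gene with a strong constitutive promoter that is used to drive transgenes in Pv11 cells, were called at neither time. nc472 had 283, 592 and 341 TPM in Control 3 h and 548, 495 and 523 TPM in Heat 3 h, which overlap (log2 change 0.44 ± 0.20, adjusted p = 0.30). In the 24 h libraries it had 294, 273 and 272 TPM in Control 24 h and 472, 365 and 408 TPM in Heat 24 h, without overlap (0.56 ± 0.20, adjusted p = 0.048, and 0.19 with adjusted p = 0.38 after scaling). The adjusted p of nc472 at 24 h was 0.067 in a fit of only the groups compared. g7775 had between 31499 and 43940 TPM in Control 3 h and between 35716 and 42175 TPM in Heat 3 h. After 24 h it had between 45415 and 50531 TPM in Control 24 h and between 37496 and 40214 TPM in Heat 24 h (-0.30 ± 0.09, adjusted p = 0.028), against a median of 0.27 for all genes.

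The heat groups were set directly against Paraquat, a contrast whose difference uses no Control library, although the spread in its test was estimated over all 54 stress libraries. At 3 h, 22 genes were higher in Heat (0.233%) and 22 lower (0.233%), and 21 (0.222%) each way after scaling. Of the 22 higher genes, 19 (86.4%) had been up at 1 h. At 24 h, 5 genes were higher in Heat (0.0529%) and 1 lower (0.0106%), with the same counts after scaling, and 88 genes had an adjusted p under 0.05 without the fold threshold. The 5 genes were g17055, g17054, g10586, g10587 and g5811, all of them up at 1 h, and the lower gene was g13362. The 161 rises over Control 24 h thus stand beside 5 genes called over Paraquat 24 h, in comparisons that share the Heat 24 h libraries. As deposited, the median log2 difference of all genes was -0.02 against Paraquat 24 h and 0.27 against Control 24 h. Without Paraquat 24 h replicate 3, 5 genes were higher and 5 lower.

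g17054 had 233, 346 and 215 TPM in Paraquat 24 h, and its mean in Heat 24 h was 7.39 times as high (log2 difference 2.9 ± 0.11, adjusted p = 8.2e-23). g10586 had 107, 107 and 95.7 TPM there, and the ratio of means was 6.09 (2.59 ± 0.11, adjusted p = 1.3e-20). g13362 had 269, 267 and 284 TPM, and its mean in Heat 24 h was 0.478 times that value (-1.06 ± 0.07, adjusted p = 3.1e-14). For g17055, g10587 and g5811 the ratios of means were 8.92, 5.1 and 5.2. In a fit of only these 2 groups, g17055 and g5811 were not called (adjusted p = 0.077 and 0.17). NF-YA and PvLea4 were also lower in Heat than in Paraquat at both times, by log2 differences of -0.62 ± 0.06 and -0.63 ± 0.06 at 3 h and of -0.39 ± 0.06 and -0.40 ± 0.06 at 24 h, all with adjusted p under 0.001 and under the fold threshold. After scaling, the differences at 24 h were -0.37 for NF-YA (adjusted p = 0.46) and -0.38 for PvLea4 (adjusted p = 0.14).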

How the data were processed

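The authors mapped reads of poly(A) RNA libraries with Bowtie2, estimated transcript abundance with RSEM in the Trinity utilities, and deposited TPM per transcript and library. The authors ran their own tests on counts, whereas the TPM values were used here, which leaves depth and precision unknown. Transcripts were summed per gene, and the 9450 of 18248 genes with a mean TPM above 1 over the 84 libraries were tested with limma 3.58.1 (with trend) in R 4.3.3 with data.table (version 1.17.8). The fit used log2(TPM + 1) of the 54 stress libraries with 1 coefficient for each of 18 groups. Calls needed a fold change over 2 and an adjusted p (Benjamini-Hochberg) below 0.05. The script was tested on simulated data. Figures were drawn with Python 3.11.15 and matplotlib 3.10.9.

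Groups came from the sample labels. The 3 replicates of a group are described as biological, with no word on separate cultures. The p-values measure the spread between replicate samples, pooled per gene over all stress groups in the fit, not only the groups compared. This pooled spread can understate that of Control 3 h, whose median SD over genes was 0.289, against 0.078 in Heat 1 h. A fit of only the groups compared takes the spread from those groups alone, and its counts are given below. Named genes were those the study names by ID, the 2 largest rises and falls per comparison among genes called whose groups did not overlap, and each gene where a count was 5 or fewer. g10586 and g10587 fall under the last of these. Members and lists were chosen with earlier results of these data known. No annotation used here matched the IDs, so no sequences are shown. Alternatives covered scaling, pseudocount, filter, trend, sample weights, the groups in the fit, the replicate block, the fold threshold, single transcripts and each library left out. Control 1 h or Control 24 h in place of Control 3 h was added after seeing the data.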

Additional observations from a re-analysis of the deposited data

Results flagged for a closer look

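The heat response differed between 3 and 24 h, by the limma test of the difference itself with adjustment over all genes, in 10 of the named genes. It was lower at 24 h in 4 of them, with log2 differences of -2.375 for g17055, -1.285 for g17054, -1.53 for g10586 and -1.695 for g10587 (adjusted p = 0.0025, 3.2e-07, 2.2e-08 and 1.9e-07). It was higher at 24 h in the other 6, all of which had been called down at 3 h. Their calls at 3 h helped to choose them as named genes, and the same 3 h libraries enter the difference. The choice thus favours a higher response at 24 h, and these 6 differences describe the genes. The 6 were g3757 (1.387), g1928 (1.436), g5884 (1.247), g16176 (1.525), g16178 (1.665) and g3547 (6.999), with adjusted p of 3.8e-04, 5.9e-04, 0.013, 0.0175, 0.0041 and 0.0187. The value of g3547 depends on the pseudocount, since the gene was listed at 0 in all Heat 3 h libraries. With 1 of the 12 libraries left out at a time, g16176 and g3547 were each called in 5 of 12 fits and g5884 in 8, and the other 7 genes in all 12. In a fit of only the groups compared, 5 of the 6 genes with a higher response at 24 h were not called: g3757 (adjusted p = 0.074), g5884 (0.21), g16176 (0.28), g16178 (0.085) and g3547 (0.086). After scaling, the differences of g1928, g3757 and g5884 were 0.99, 0.94 and 0.80, under the fold threshold. For g16178, Control 1 h had 4.55, 3.47 and 2.93 TPM against 7.97, 9.23 and 10.5 TPM in Control 3 h, so its controls also differed between times. The part of the Control 3 h libraries in these differences was not tested.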

How the results depend on the processing

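Of the alternatives to the counts, 147 lay within 1.5 times the value reported and 55 did not, and of those to named genes 96 lost a call, 65 gained one and 1 reversed: g14081 at 3 h went from -1.16 to 0.0797 (adjusted p = 0.90) against Control 1 h. The cause was not tested.

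At 24 h, 169 calls became 82 after scaling, 346 with a pseudocount of 0.1, 68 without the filter, 10 in a fit of only the groups compared, 867 with sample weights and 1695 without the fold threshold. At 3 h, 46 became 22 with only the groups compared, 412 without the fold threshold, 94 over single transcripts and 244 against Control 1 h. The 48 differences between 24 and 3 h became 25 after scaling, 29 without the filter, 11 with only the groups compared, 206 with sample weights and 120 without the fold threshold. At 1 h, 121 became 1077 without the fold threshold. Against Paraquat, 44 at 3 h became 213 with sample weights and 524 without the fold threshold, and 6 at 24 h became 13 and 88.

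Genes up at 1 and 3 h (17) became 74 without the fold threshold and 40 against Control 24 h. Genes up at 1 and 24 h (17) became 5 with only the groups compared, 41 with sample weights and 135 without the fold threshold. Genes up at all times (9) became 5, 5, 36, and 17 against Control 24 h, and genes down at 1 and 3 h (5) became 3 with only the groups compared, 101 without the fold threshold and 2 against Control 24 h.

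With each library left out, counts ranged from 36 to 163 at 3 h, 19 to 980 at 24 h, 17 to 1743 for 24 against 3 h, 98 to 124 at 1 h, 40 to 55 and 6 to 10 against Paraquat, 15 to 20 for up at 1 and 3 h, 11 to 27 for up at 1 and 24 h, 4 to 6 for down at 1 and 3 h, and 7 to 11 for up at all times.

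Same-numbered Heat and Control libraries deviated with correlations between -0.736 and 0.140, so the numbers were not taken to pair samples. With the replicate block, 45 genes were called at 3 h, 153 at 24 h and 38 between them.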
